A study of Mus musculus with 21 samples.

Results

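The genes described here are 10 genes that move calcium into, out of and around the sarcoplasmic reticulum of heart muscle cells, taken by symbol from the 24054 rows of the deposited table. They are the calcium pump Atp2a2, its inhibitors Pln and Sln, the release channel Ryr2 with its partners Casq2, Trdn, Hrc and Jph2, and the cell surface channel Cacna1c and exchanger Slc8a1. RNA was sequenced from the left ventricle myocardium of 21 C57BL/6J mice, 1 library per ear-tagged animal. The groups were 5 mice with sham surgery and no drug, 5 with transverse aortic constriction (TAC, a narrowing of the aorta that overloads the ventricle) and no drug, 5 with TAC and the PDE5A inhibitor sildenafil, and 6 with TAC and the PDE9A inhibitor PF-04449613. Drug treatment lasted 4 weeks and began 1 week after surgery. The sources used here do not give age, sex, dose, or whether untreated mice received a vehicle, and no genetic change is labelled in any group. PDE5A and PDE9A break down cyclic GMP, and the series title states that the study asks how their inhibition affects heart mRNA under pressure overload.

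With each heartbeat a small calcium current through the L-type channel, whose pore is encoded by Cacna1c, opens the ryanodine receptor Ryr2 in the facing membrane of the sarcoplasmic reticulum, and the calcium released there drives contraction. Relaxation follows when the pump SERCA2 (Atp2a2) returns calcium to the store and the sodium-calcium exchanger (Slc8a1) carries the rest out of the cell. Phospholamban (Pln) and sarcolipin (Sln) are small membrane proteins that restrain the pump, and phosphorylation of phospholamban lifts that restraint. The ratio of phospholamban to pump is therefore a common summary of the system, although here it is a ratio of mRNA and carries no information on protein or phosphorylation.

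Total counts ran from 22.7 to 41.0 M per library, and Atp2a2 alone took 0.742 to 1.96% of a library's counts. Levels below are counts per M after TMM scaling (CPM), given as mean ± SD, and differences are log2 fold changes with their standard errors from edgeR's quasi-likelihood test. Calls needed an adjusted p under 0.05 over the 14135 genes that passed a filter on low counts, and 9 of the 10 genes passed it. The exception was Sln. The tissue label was matched by the 14 cardiomyocyte markers, which were present in every group and summed to between 136009 and 221088 CPM per library. Because these are bulk samples, fewer cardiomyocytes and less RNA per cardiomyocyte cannot be told apart. Ear tag numbers were uneven over the groups, with a first digit of 1 on 3 sham, 2 TAC, 0 PDE5A inhibitor and 1 PDE9A inhibitor mice and of 5 or 6 on the others. What this first digit stands for is not given, and its part in the results was examined only through the alternatives reported with them.

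In sham hearts, levels divided by the exon length of each gene placed Atp2a2 first at 3734 ± 250 CPM per kb (SD, n = 5) and Pln second at 2389 ± 153. Casq2, the calcium-binding protein that buffers the store, followed at 540 ± 31.4 CPM per kb. Hrc, at 379 ± 40.7 CPM per kb, and Ryr2, at 349 ± 38.7, overlapped between libraries. Jph2 stood at 125 ± 8.75 and Slc8a1 at 78.5 ± 7.49 CPM per kb. Trdn, at 37.3 ± 2.76, and Cacna1c, at 31.7 ± 3.37 CPM per kb, again overlapped, and Sln was last at 0.0112. Every other pair of neighbours in this order was separated in all sham libraries. The lengths join the exons of all annotated transcripts of a gene, not those of the form expressed in heart, so the order depends on that choice.

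Under TAC the mRNA of the pump, of its main inhibitor in the ventricle and of the release channel Ryr2 was lower than in sham. Of the channel's partners, Hrc, Trdn and Jph2 were also called lower and Casq2 was not, and the calls of Trdn and Jph2 were not firm. Of the 9 tested genes, 6 fell (Atp2a2, Hrc, Ryr2, Pln, Trdn and Jph2), 0 rose, and Casq2, Cacna1c and Slc8a1 did not pass the test. Over all genes 25.2% were called in either direction and 13% were called lower. The median difference of the 9 genes was -0.24, against -0.00 for all genes tested. For 4 of the 9 genes, Atp2a2, Pln, Ryr2 and Jph2, every TAC library lay below every sham library, which held for 8% of all genes tested.

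Atp2a2 (ENSMUSG00000029467.15, minus strand, chr5:122453513-122502225 in GENCODE M21 on GRCm38, the assembly that mm10 names) had the lowest log2 difference of the 9 tested members. In sham libraries 1 to 5 it was measured at 20861, 19220, 18798, 21324 and 18307 CPM. In TAC libraries 1 to 5 it was measured at 10346, 14295, 9432, 6995 and 13174 CPM. The lowest sham heart was thus above the highest TAC heart, and the TAC hearts differed among themselves far more than the sham hearts did. The means were 19702 ± 1320 CPM in sham and 10848 ± 2932 in TAC (n = 5 each), a difference of -0.86 (SE 0.18, edgeR adjusted p = 0.00405), which left 55.1% of the sham mean. The call held when any single library was left out, with differences between -0.97 and -0.73.

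Pln (ENSMUSG00000038583.13, plus strand, chr10:53337667-53345987) fell with the pump, by a smaller amount. Its sham libraries held 7175, 6314, 6462, 6869 and 6143 CPM. Its TAC libraries held 4305, 5906, 3933, 2935 and 5716 CPM, so the groups did not overlap. TAC libraries 2 and 5, the highest for Pln, were also the highest for Atp2a2, and library 4 was the lowest for both. The difference was -0.53 (SE 0.16, adjusted p = 0.0199), and it lost its call without TAC library 3 (-0.48, adjusted p = 0.0622) or without TAC library 4 (-0.40, adjusted p = 0.0555). Pln lies inside the span of Cep85l on the opposite strand, a gene measured at 13.8 to 24.6 CPM. The libraries were stranded, but the sources used here do not say whether counting used strand.

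The other pump inhibitor, Sln (ENSMUSG00000042045.6, plus strand, chr9:53850164-53854560), is known as a gene of atrial and skeletal muscle, and it was close to absent from these ventricles. It had 0 counts in 10 libraries and a sum of 18 counts over 20 libraries, none of which had more than 5. PDE9A inhibitor library 1 stood apart with 68 counts, or 2.42 CPM. Of the 7 atrial markers, the 2 atrial myosin light chains were also highest in that library and the other 5 were not. Myl7 had 335 counts there and 0 to 13 in the other 20 libraries, and Myl4 had 372 counts there and 21 to 84 in the others. Bmp10, another atrial gene, had 0 counts in that library and at most 3 in any other. Dkk3 (881 counts against 67 to 1715 in the others), Kcnj3 (1114 against 366 to 2056), Stard10 (247 against 126 to 692) and Tbx5 (436 against 292 to 962) lay within the range of the other libraries. The part of atrial tissue in this library was not tested, and with 3 counts, worth 0.0781 to 0.135 CPM, as the floor, no fold change of Sln is given.

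**Figure D1:**
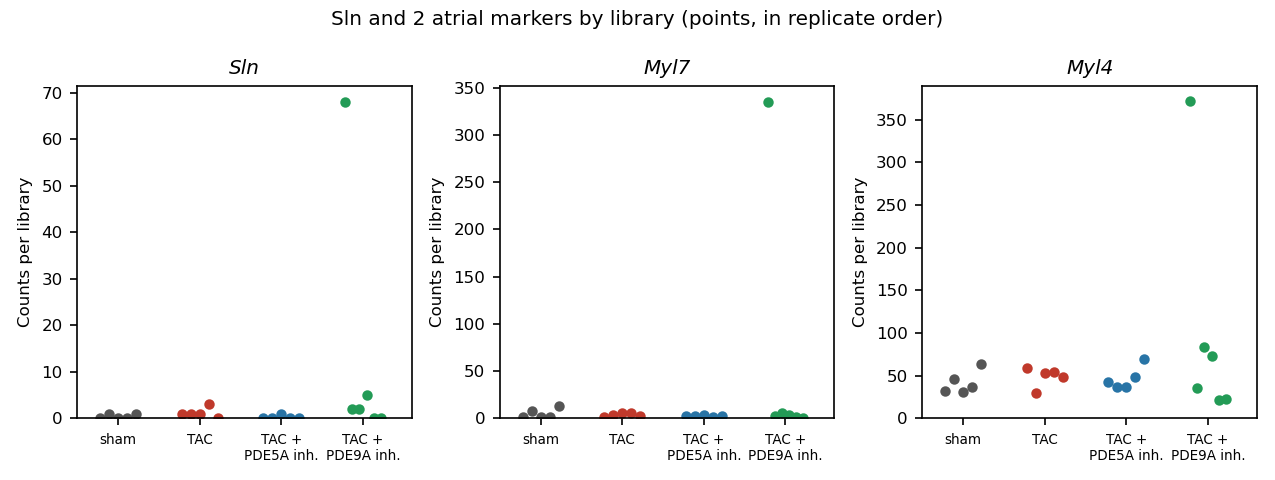
Sln, Myl7 and Myl4 counts in each of the 21 libraries (y axes, expected counts rounded to whole numbers), by group on the x axis, with points in replicate order. PDE9A inhibitor library 1 holds 68 Sln, 335 Myl7 and 372 Myl4 counts, above every other library in all 3 panels.

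Among the genes of calcium release, Ryr2 (ENSMUSG00000021313.16, minus strand, chr13:11553102-12106945), the channel itself, fell nearly as far as the pump. Sham libraries 1 to 5 gave 6903, 5758, 5882, 7337 and 5976 CPM. TAC libraries 1 to 5 gave 3386, 4685, 4010, 3019 and 4190 CPM, all below the lowest sham heart. The difference was -0.72 (SE 0.15, adjusted p = 0.00433), and the call held when any single library was left out.

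Hrc (ENSMUSG00000038239.11, plus strand, chr7:45335290-45338974) encodes the histidine-rich calcium-binding protein of the store, which binds both triadin and the pump. Its sham libraries stood at 1052, 951, 867, 1109 and 888 CPM. Its TAC libraries stood at 544, 898, 428, 308 and 627 CPM, and library 2 reached into the sham range while the other 4 lay below it. The difference was -0.79 (SE 0.22, adjusted p = 0.0164), and the call was lost without TAC library 3 (-0.70, adjusted p = 0.0531).

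Triadin (Trdn, ENSMUSG00000019787.9, plus strand, chr10:33080554-33476709) tethers calsequestrin to the ryanodine receptor, and junctophilin 2 (Jph2, ENSMUSG00000017817.11, minus strand, chr2:163336242-163397993) holds the store's membrane against the cell surface. Trdn stood at 293 ± 21.7 CPM in sham and 248 ± 24.5 in TAC (n = 5 each), a difference of -0.24 (SE 0.08, adjusted p = 0.0275), with overlapping groups. Jph2 stood at 534 ± 37.2 CPM in sham and 453 ± 25.6 in TAC, also -0.24 (SE 0.08, adjusted p = 0.0309), and its highest TAC library, at 489 CPM, lay just under its lowest sham library, at 491. Neither call was firm. Leaving out any of sham libraries 1 and 4 and TAC libraries 1, 3 and 4 ended the call for Trdn, with adjusted p between 0.0605 and 0.0895. The Jph2 call was lost by leaving out any of sham libraries 1, 3 and 4 and TAC libraries 2, 3 and 4, with adjusted p between 0.0524 and 0.0919. An antisense gene, D830005E20Rik, overlaps Trdn and was measured at 39.2 to 61.7 CPM.

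Casq2 (ENSMUSG00000027861.13, plus strand, chr3:102086415-102146514), the store's main calcium buffer in heart, was measured at 1384 ± 80.4 CPM in sham and 1402 ± 204 in TAC. Its difference was 0.02 (SE 0.11, 95% interval -0.21 to 0.25, adjusted p = 0.916). That interval lies wholly above those of Atp2a2 (-1.23 to -0.49), Ryr2 (-1.04 to -0.41) and Hrc (-1.26 to -0.33) and meets those of Pln (-0.86 to -0.20), Trdn and Jph2 (-0.40 to -0.08 each). The differences between genes were not tested. At the cell surface, Cacna1c (ENSMUSG00000051331.15, minus strand, chr6:118587240-119196418) went from 483 ± 51.3 to 410 ± 50.3 CPM, a difference of -0.24 (SE 0.12, adjusted p = 0.164). Slc8a1 (ENSMUSG00000054640.15, minus strand, chr17:81373105-81738377) went from 1461 ± 139 to 1300 ± 221 CPM, a difference of -0.17 (SE 0.11, adjusted p = 0.240). Both intervals include 0, from -0.50 to 0.02 for Cacna1c and from -0.39 to 0.05 for Slc8a1. All 10 genes are annotated as protein-coding, and the coordinates span exons, introns and UTRs together.

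**Figure D2:**
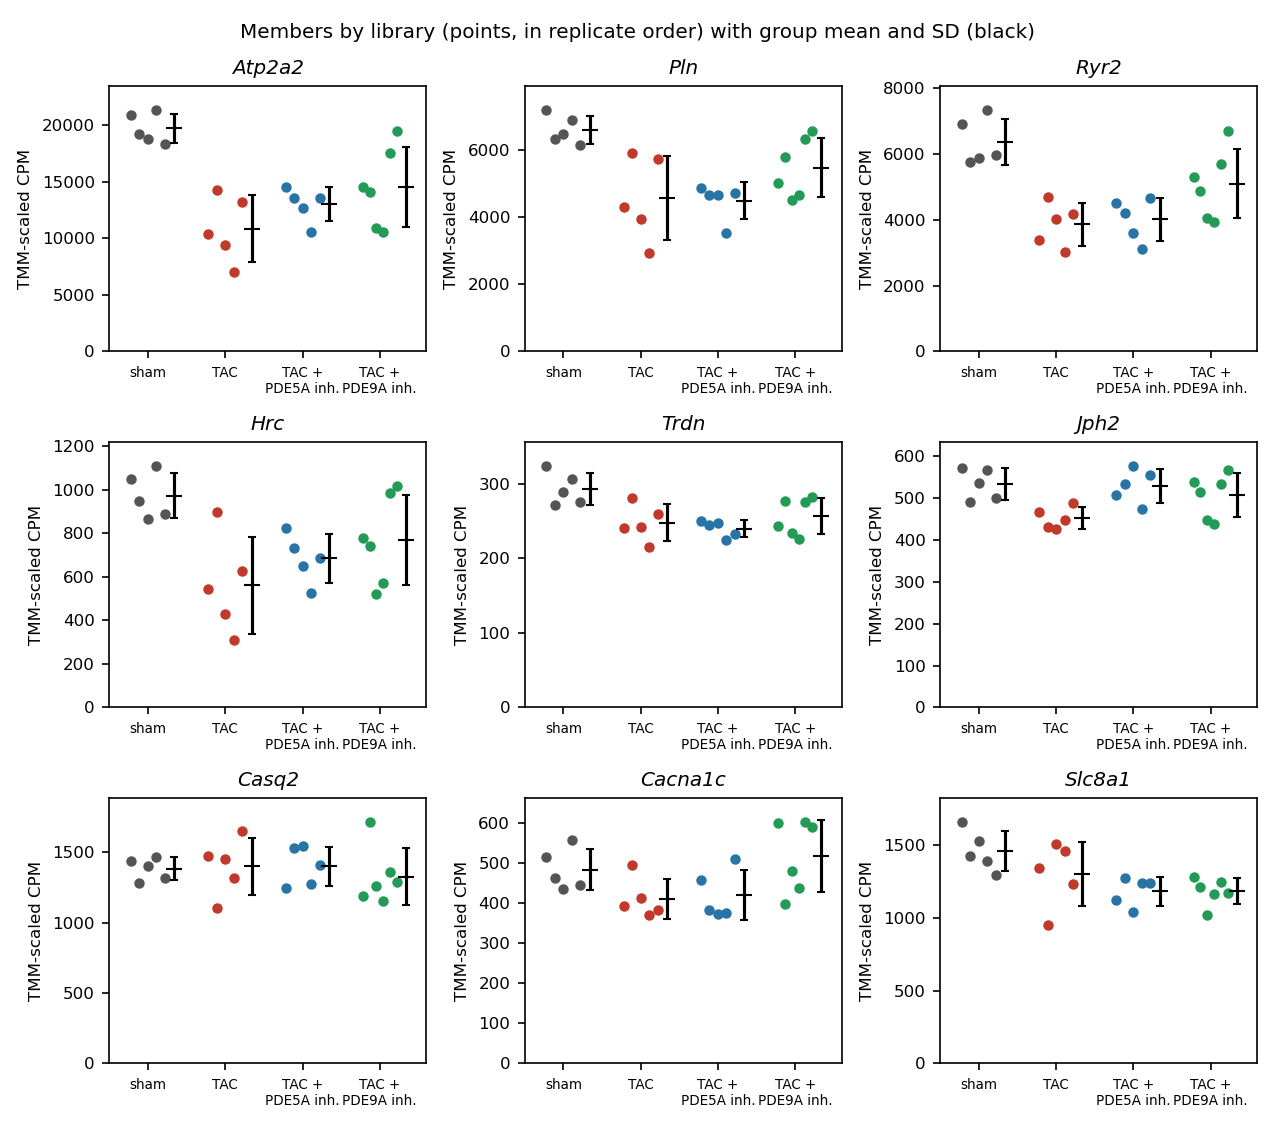
TMM-scaled CPM of the 9 tested genes in each library (y axes, starting at 0), by group on the x axis, with points in replicate order and the group mean and SD in black. Atp2a2, Pln, Ryr2 and Jph2 have every TAC library below every sham library, while the Casq2 groups overlap throughout.

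Cell composition markers moved between the same groups. Summed fibroblast markers ran from 2378 to 2929 CPM in sham and from 3708 to 5230 in TAC, and 6 of the 8 markers rose. Of the 14 cardiomyocyte markers 5 fell and 1 rose, with a median of -0.20 and sums of 188224 to 221088 CPM in sham and 136009 to 191358 in TAC. When libraries were instead scaled on the cardiomyocyte markers, the median of all genes in TAC against sham moved to 0.226. On that scale Atp2a2 (-0.66), Hrc (-0.60), Ryr2 (-0.51) and Pln (-0.33) were still called lower, and Trdn (-0.02) and Jph2 (-0.01) were not called. The 14 markers include Myh6, at a mean of 35178.5 CPM over the 21 libraries, whose profile lay close to that of Atp2a2, as given below. The sums and this scale thus do not measure cardiomyocyte content alone, and the part of Myh6 in them was not tested. Of the other markers, 3 of 5 tested atrial genes fell and 1 rose, 1 of 4 skeletal muscle genes and 1 of 5 macrophage genes fell, 1 of 5 smooth muscle and 1 of 4 conduction genes rose, and 0 of 6 endothelial and 0 of 5 erythroid genes were called. The part of cell composition in the members' differences was not tested beyond this scaling.

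The promoters of 3 genes that fell under TAC, Pln, Ryr2 and Hrc, are shown beside that of Casq2, which was not called, so that genes of the same store with and without a call can be read side by side. The windows are from RefSeq on GRCm38.p6, from 250 bases before to 50 after the annotated start, read 5′ to 3′ on the gene's own strand, and 7 of the 10 genes had an entry. Atp2a2, Sln and Trdn had no entry. The motifs searched on both strands were the TATA box with the letters TATAAA, the GC box with the letters GGGCGG, the MCAT element with the letters CATTCC, the GATA site with the letters AGATAA, and the MEF2 and CArG box motifs. Capitals mark every match, including those read on the opposite strand.
Pln, chr10:53337436-53337735, plus strand: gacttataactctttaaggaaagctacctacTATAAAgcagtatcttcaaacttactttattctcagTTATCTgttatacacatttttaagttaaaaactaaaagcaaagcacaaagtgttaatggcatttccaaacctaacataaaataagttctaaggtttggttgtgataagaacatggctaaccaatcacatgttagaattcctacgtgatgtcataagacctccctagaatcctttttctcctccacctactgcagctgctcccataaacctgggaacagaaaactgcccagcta
Ryr2, chr13:12106896-12107195, minus strand: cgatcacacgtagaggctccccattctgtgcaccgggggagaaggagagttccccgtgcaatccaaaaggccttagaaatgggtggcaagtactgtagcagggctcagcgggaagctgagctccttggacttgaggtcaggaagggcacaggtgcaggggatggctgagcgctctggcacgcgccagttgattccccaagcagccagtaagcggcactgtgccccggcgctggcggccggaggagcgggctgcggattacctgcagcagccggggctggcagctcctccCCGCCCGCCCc
Hrc, chr7:45335019-45335318, plus strand: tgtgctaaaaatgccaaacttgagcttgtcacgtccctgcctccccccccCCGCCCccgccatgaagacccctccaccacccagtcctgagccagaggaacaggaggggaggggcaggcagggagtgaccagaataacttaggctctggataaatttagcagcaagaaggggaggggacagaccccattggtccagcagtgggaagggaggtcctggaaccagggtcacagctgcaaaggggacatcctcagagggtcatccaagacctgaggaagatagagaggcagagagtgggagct
Casq2, chr3:102086165-102086464, plus strand: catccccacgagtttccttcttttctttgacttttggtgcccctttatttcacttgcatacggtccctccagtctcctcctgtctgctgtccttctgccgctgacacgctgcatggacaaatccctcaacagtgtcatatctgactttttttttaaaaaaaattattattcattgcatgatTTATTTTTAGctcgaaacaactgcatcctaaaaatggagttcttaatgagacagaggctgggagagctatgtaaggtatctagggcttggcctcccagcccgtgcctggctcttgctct
The Pln window held TATAAA at positions -219 to -214 from the start and a GATA site on the opposite strand at -183 to -178. The Ryr2 window held a pair of overlapping GC boxes on the opposite strand, after the start, at 39 to 44 and 43 to 48, and the Hrc window 1 GC box on the opposite strand at -200 to -195. The Casq2 window held a MEF2 motif at -69 to -60, which reads as a match on both strands. Of the 32851 promoter windows in the table, 13.6% held TATAAA, 35.7% the GC box, 14.7% the MCAT element, 11.2% the GATA site, 3.19% the MEF2 motif and 1.63% the CArG box. Jph2, the other gene that fell and has an entry, is not printed. Its 2 overlapping windows hold a single GC box site, at -17 to -12 from one start and -37 to -32 from the other. Of these 4 genes that fell, Ryr2, Hrc and Jph2 thus had a GC box and Pln had none. Among the genes not called, 1 of 3 Cacna1c windows held GC boxes, and the Casq2 and Slc8a1 windows held none. The Slc8a1 window held a GATA site at -68 to -63, so that motif occurred with and without a call. GC content was 36.0% in the Pln window, 65.3% in Ryr2, 58.7% in Hrc and 44.7% in Casq2. The matches describe letters in these windows only.

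The ratio of Pln to Atp2a2 counts separated the untreated TAC hearts from both sham and sildenafil-treated hearts. In sham libraries 1 to 5 the ratio was 0.344, 0.329, 0.344, 0.322 and 0.336. In TAC libraries 1 to 5 it was 0.416, 0.413, 0.417, 0.420 and 0.434. Although Atp2a2 itself ranged from 6995 to 14295 CPM among these TAC hearts, their ratios stayed within 0.413 to 0.434. Under the PDE5A inhibitor it was 0.335, 0.343, 0.367, 0.333 and 0.349, so that every treated heart lay below every untreated TAC heart. Under the PDE9A inhibitor the lowest of the 6 ratios was 0.336 and the highest 0.439, with libraries 2, 3 and 4 at 0.411 or above and libraries 1, 5 and 6 at 0.361 or below. The means were 0.335 ± 0.00955 in sham, 0.420 ± 0.00813 in TAC, 0.345 ± 0.0136 with the PDE5A inhibitor and 0.384 ± 0.0423 with the PDE9A inhibitor. Divided by exon length they were 0.640, 0.803, 0.660 and 0.735.

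Two-sided exact permutation tests of the log2 ratio were adjusted over the 6 comparisons. TAC exceeded sham by 0.327 (exact p = 0.00794, adjusted p = 0.0238), and the PDE5A inhibitor group was below TAC by a difference of -0.284 (exact p = 0.00794, adjusted p = 0.0238). Both are the smallest p that 5 against 5 libraries can give, and the comparisons share the TAC libraries. The PDE5A inhibitor group and sham overlapped, with a difference of 0.044 (SE 0.031, exact p = 0.198, adjusted p = 0.198). The PDE9A inhibitor group did not differ detectably from TAC (-0.136, SE 0.066, exact p = 0.115, adjusted p = 0.138) or from the PDE5A inhibitor group (the latter lower by a difference of -0.148, SE 0.070, exact p = 0.102, adjusted p = 0.138). Against sham its difference was 0.191 (exact p = 0.0303), which did not pass after adjustment (adjusted p = 0.0606). Leaving out PDE9A inhibitor library 4, which has the highest ratio of all 21 libraries, brought that group's difference from TAC to -0.176 with an exact p of 0.00794. Without PDE9A inhibitor library 6 the difference between the inhibitor groups was -0.185 with an exact p of 0.0476. In each of these comparisons this was the only 1 of 11 leave-outs to change side of 0.05. The exact p, not adjusted, ran from 0.00794 to 0.206 against TAC and from 0.0476 to 0.198 between the inhibitor groups. For the PDE9A inhibitor against sham 3 of 11 leave-outs changed side, with exact p from 0.00794 to 0.0524.

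**Figure D3:**
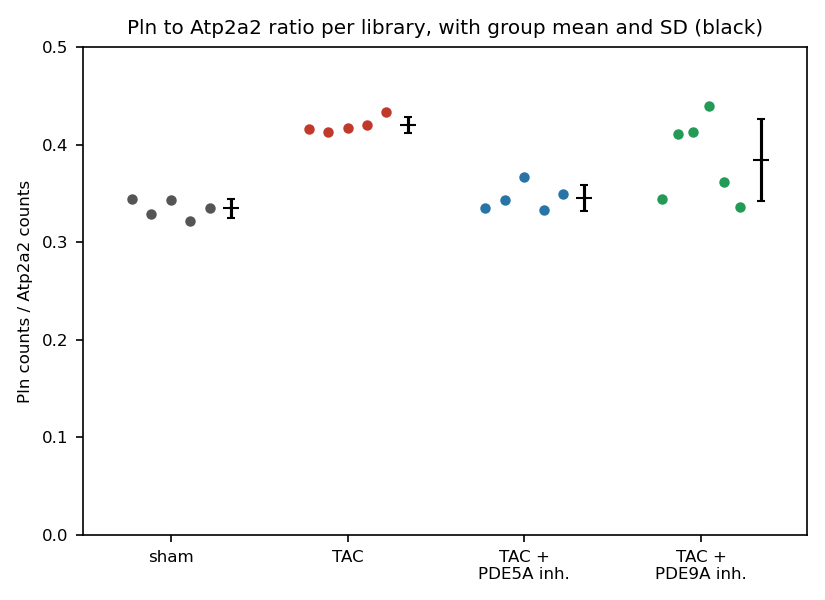
Pln to Atp2a2 count ratio in each library (y axis, ratio of counts), by group on the x axis, with points in replicate order and the group mean and SD in black. TAC libraries sit between 0.413 and 0.434, sham between 0.322 and 0.344, PDE5A inhibitor between 0.333 and 0.367, and PDE9A inhibitor libraries spread from 0.336 to 0.439.

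A ratio to Atp2a2 rises in TAC for any gene that falls less than the pump. It was higher in every TAC library than in every sham library for 71.4% of the other genes tested, and for Casq2, Trdn, Jph2 and Cacna1c as well as Pln among the genes described here. Casq2 to Atp2a2, for example, was 0.0703 ± 0.00317 in sham and 0.138 ± 0.0407 in TAC. The rise of the Pln ratio under TAC is therefore near the background. The ratios of Hrc, Ryr2 and Slc8a1 to Atp2a2 overlapped between TAC and sham, and Hrc to Atp2a2 was 0.0493 ± 0.00220 in sham and 0.0505 ± 0.00761 in TAC. The lower ratio under the PDE5A inhibitor was less common. A ratio to Atp2a2 that was lower in every PDE5A inhibitor library than in every TAC library was found for 0.983% of the other genes, and among the members for Pln alone. A ratio to Pln that was higher in every PDE5A inhibitor library was found for 0.184%, and among the members for Atp2a2 alone. For this pair it is the same separation read the other way round, so it adds no second result. The single levels of Pln and Atp2a2 overlapped between these groups.

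With the PDE5A inhibitor, no member passed the test against TAC. Over all genes 2 were called, or 0.0141%. The members' adjusted p ran from 0.947 to 1.00, their median difference was 0.03 against -0.00 for all genes, and DESeq2 also called 0 members. At an unadjusted p under 0.05 edgeR picked 1 of the 9 members and 5.17% of all genes. That member was Jph2, at 530 ± 39.8 CPM against 453 ± 25.6 in TAC (0.23, SE 0.08, unadjusted p = 0.00837, adjusted p = 0.947). None of the 9 members was without overlap between these groups in CPM, against 0.99% of all genes. Atp2a2 was measured at 14560, 13576, 12693, 10571 and 13521 CPM in PDE5A inhibitor libraries 1 to 5, which lay between the TAC and sham means in 4 of 5 libraries. Its difference from TAC was 0.26 with a 95% interval of -0.11 to 0.63. Pln was measured at 4872, 4654, 4653, 3520 and 4717 CPM, with a difference of -0.02 (95% interval -0.35 to 0.30), and Ryr2 at 4525, 4210, 3598, 3102 and 4655 CPM, with a difference of 0.06 (-0.26 to 0.37).

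With the PDE9A inhibitor, too, 0 members passed the test against TAC, and 1 of all genes tested did, or 0.00707%. The members' median difference was 0.26 against 0.00 for all genes, adjusted p ran from 0.261 to 0.793, and DESeq2 called 0 members. At an unadjusted p under 0.05 edgeR picked 5 of the 9 members, all higher with the inhibitor, and 14.6% of all genes. These were Hrc (0.46, SE 0.21, adjusted p = 0.338), Atp2a2 (0.42, SE 0.17, adjusted p = 0.291), Ryr2 (0.40, SE 0.15, adjusted p = 0.264), Cacna1c (0.34, SE 0.12, adjusted p = 0.261) and Jph2 (0.16, SE 0.07, adjusted p = 0.322). Pln differed by 0.26 (SE 0.15, adjusted p = 0.418), Trdn by 0.05, Casq2 by -0.08 and Slc8a1 by -0.13. The 6 treated hearts were far apart. Atp2a2 had a lowest value of 10568 CPM, a median of 14319 and a highest of 19474, of which only the highest, library 6, lay within the sham range, with library 5 next at 17505. Ryr2 ran from 3928 through a median of 5087 to 6711 CPM, with the same 2 libraries highest. Cardiomyocyte marker sums in this group ran from 156997 to 220462 CPM, and scaling on these markers moved the median of all genes in this comparison to -0.116. On that scale Atp2a2 differed by 0.30, Ryr2 by 0.27, Hrc by 0.34, Cacna1c by 0.21, Jph2 by 0.03 and Trdn by -0.08, again with 0 members called.

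**Figure D4:**
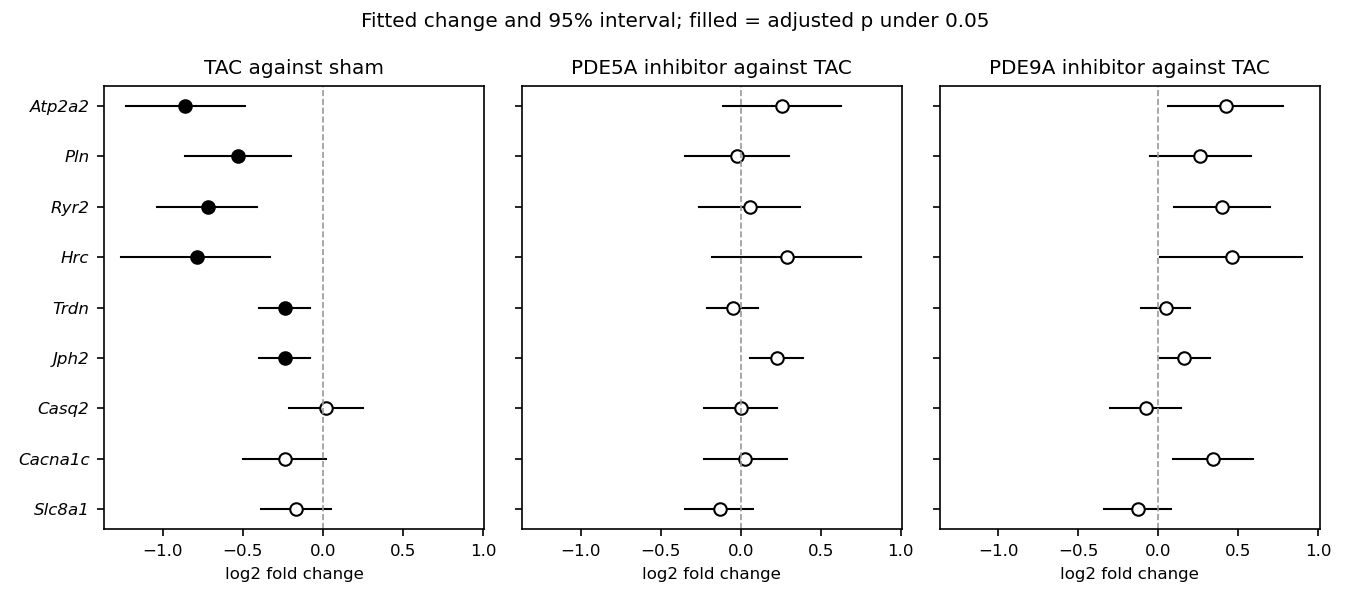
Log2 fold changes of the 9 tested genes in TAC against sham and in each inhibitor group against TAC (x axes, log2 scale, points with 95% intervals from the edgeR fit, filled where called), with genes on the y axis. The intervals of Atp2a2, Pln, Ryr2, Hrc, Trdn and Jph2 lie below 0 for TAC against sham, and no member is called for either inhibitor against TAC.

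Between the inhibitor groups, 0 members and 0.00707% of all genes were called, and DESeq2 called 0 members. At an unadjusted p under 0.05 edgeR picked 2 of 9 members and 10.4% of all genes. Both were lower with the PDE5A inhibitor, Ryr2 by a difference of -0.34 (SE 0.15, 95% interval -0.65 to -0.04, adjusted p = 0.426) and Cacna1c by -0.30 (SE 0.12, -0.55 to -0.05, adjusted p = 0.402). The 95% interval of the Atp2a2 difference ran from -0.51 to 0.19 and that of Pln from -0.60 to 0.03. The mice differed in drug, and doses are not given, so the groups are set side by side without a match of dose.

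Each inhibitor group was also compared with sham, and these comparisons share the sham libraries with each other and with TAC against sham. With the PDE5A inhibitor 4 of 9 members were lower than in sham, while 14.6% of all genes were called and 7.8% were called lower. Ryr2 differed by -0.67 (SE 0.15, adjusted p = 0.0114), Trdn by -0.29 (SE 0.08, adjusted p = 0.0210), Pln by -0.56 (SE 0.16, adjusted p = 0.0264) and Atp2a2 by -0.60 (SE 0.18, adjusted p = 0.0316). With the first digit of the ear tag in the model Ryr2 alone was still called, and Atp2a2 (-0.53, adjusted p = 0.129), Pln (-0.51, adjusted p = 0.109) and Trdn (-0.27, adjusted p = 0.0913) were not. Leaving out 1 library brought the number of members called to between 1 and 5, and it was 1 without sham library 1, sham library 4 or PDE5A inhibitor library 4 and 2 without PDE5A inhibitor library 3 or 5. Every treated heart was below every sham heart for 6 of the 9 members, the 4 called ones with Hrc and Slc8a1, and for 8.75% of all genes. Slc8a1 stood at 1184 ± 99.7 CPM against 1461 ± 139 in sham (-0.30, SE 0.11, adjusted p = 0.0568), and DESeq2 called it (adjusted p = 0.0319). Jph2 was at 530 CPM in the treated hearts and 534 in sham (-0.01, 95% interval -0.17 to 0.15). Fibroblast markers summed to 2994 to 5011 CPM with the PDE5A inhibitor against 2378 to 2929 in sham, with 3 of 8 called higher, and 2 of 14 cardiomyocyte markers were called lower. Scaling on the cardiomyocyte markers moved the median of all genes to 0.179. On that scale 3 members were called, Ryr2 (-0.49), Atp2a2 (-0.42) and Pln (-0.38), and Trdn was not (-0.11, adjusted p = 0.143).

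With the PDE9A inhibitor 0 of 9 members were called against sham, where 3.82% of all genes were, and 4 members had an unadjusted p under 0.05. The differences were -0.44 for Atp2a2 (SE 0.17, adjusted p = 0.110), -0.32 for Ryr2 (SE 0.14, adjusted p = 0.157), -0.19 for Trdn (SE 0.07, adjusted p = 0.105) and -0.30 for Slc8a1 (SE 0.10, adjusted p = 0.0761). Every treated heart was below every sham heart for 1 of the 9 members, Slc8a1, at 1184 ± 90.2 CPM against 1461 ± 139, and for 1.87% of all genes. Its level and difference were close to those with the PDE5A inhibitor, given above, and both comparisons use the same sham libraries. Fibroblast markers summed to 2877 to 6449 CPM in this group, with 2 of 8 called higher than in sham. With cardiomyocyte marker scaling, which moved the median of all genes to 0.11, the Slc8a1 difference was -0.20. DESeq2, which was run without the filter, called 2 members in this comparison. They were Slc8a1 (-0.30, adjusted p = 0.0378) and Sln, whose counts in the PDE9A inhibitor group come mostly from library 1.

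Among overloaded hearts, those with more Myh7 had less Atp2a2. Myh7, the slow myosin heavy chain that overloaded mouse ventricles re-express, rose under TAC from 244 ± 52.4 to 5745 ± 2537 CPM (4.56, SE 0.86, adjusted p = 0.00312), with Nppa (3.98) and Nppb (2.16), the natriuretic peptide genes, also called. Across the 16 TAC-operated hearts Myh7 ran from 380 to 9100 CPM. Log2 Atp2a2 fell with log2 Myh7, with Pearson's r = -0.745 (permutation p = 0.00057, adjusted over 2 relations 0.00114) and Spearman's rho = -0.824 (permutation p = 0.00012, adjusted 0.00024). The resampling over all 16 hearts, here and for the ratio below, took no account of group. Differences between treatment groups are therefore part of these p-values. Without the 2 hearts farthest from the median Myh7, PDE5A inhibitor libraries 1 and 2, r was -0.835. Within the 13 hearts with ear tags beginning with 5 or 6 r was -0.763. Since 4 hearts, with 380 to 592 CPM of Myh7, lay apart from the others, r was also taken over the 12 hearts above 1000 CPM, where it was -0.706 (permutation p = 0.00939). Within the 6 PDE9A inhibitor hearts r was -0.945 (exact permutation p = 0.0125, adjusted 0.025) and rho -0.886 (exact permutation p = 0.0333, adjusted 0.0667). The last 2 subsets were chosen after seeing the data, and the relation was not taken within untreated TAC or PDE5A inhibitor hearts alone.

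The Pln to Atp2a2 ratio had a weaker relation to Myh7, with r = 0.562 (permutation p = 0.0259, adjusted 0.0259) and rho = 0.529 (permutation p = 0.0376, adjusted 0.0376) over the 16 hearts. It rested on a few hearts, since without the 2 farthest r was 0.406 (permutation p = 0.154) and over the 12 hearts above 1000 CPM it was 0.0299 (permutation p = 0.927). Within the 13 hearts with ear tags beginning with 5 or 6 r was 0.578 (permutation p = 0.0429) and rho 0.511 (permutation p = 0.0772). PDE5A inhibitor libraries 3, 4 and 5 had 3386, 5714 and 6931 CPM of Myh7, in the range of untreated TAC, with ratios of 0.367, 0.333 and 0.349, below every untreated TAC heart. In the PDE9A inhibitor group library 1, with 2955 CPM of Myh7, had a ratio of 0.344, and library 2, with 1747 CPM, had 0.411.

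**Figure D5:**
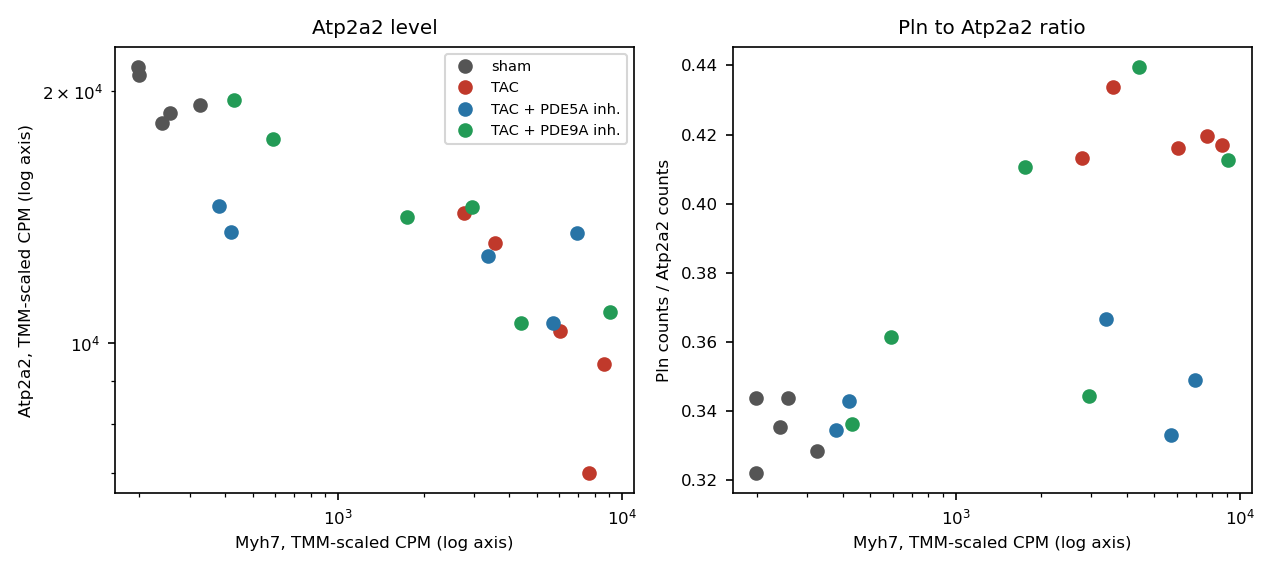
Atp2a2 level (left, CPM, log axis) and Pln to Atp2a2 ratio (right) against Myh7 level (x axes, CPM, log axes) in each library, by group. Atp2a2 is lower in the TAC-operated hearts with more Myh7 (r = -0.745 over 16), while PDE5A inhibitor libraries 3 to 5 combine 3386 CPM or more of Myh7 with ratios of 0.333 to 0.367.

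Genes whose profile over the 21 libraries lay closest to Atp2a2 were found by the root mean square difference of log2 CPM centred on each gene's mean. They were Aldh5a1 (0.10), Apbb1 (0.104), Etfb (0.106), Myh6, the fast myosin heavy chain (0.106), and Bckdhb (0.109), against a median of 0.457 over all tested genes. Of the members Hrc was closest to Atp2a2, at 0.115, followed by Pln and Ryr2 at 0.152 each. Trdn (0.290), Cacna1c (0.326), Jph2 (0.333), Slc8a1 (0.429) and Casq2 (0.435) were farther away. The closest genes to Pln were Zkscan7 (0.107), As3mt (0.108), Ric8b (0.110), Ndufs1 (0.111) and Nqo2 (0.112), against a median of 0.382. These values share libraries and scaling and describe likeness only.

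A wider set of 65 genes in 6 lists (pump regulators, release and junction, sarcolemmal entry, extrusion, mitochondrial calcium, and kinases acting on the cycle) gave 62 tested genes, of which 10 rose and 10 fell under TAC, with a median of -0.00. The share called, 32.3%, stands beside 25.2% of all genes, and nothing particular to the lists is read from it. Strit1 was not analysed here. Of 10 tested pump regulators 3 fell and 0 rose. Ppp1r3a, a regulatory subunit of protein phosphatase 1, fell from 538 to 340 CPM (-0.66, adjusted p = 0.00395), while Mrln (-1.01) and Atp2a1 (-1.43), genes known from skeletal muscle, were called lower at levels under 1 CPM. Of 17 release and junction genes 3 rose and 2 fell. Sri, the calcium-binding protein sorcin (0.28, adjusted p = 0.00436), Ryr3, a second ryanodine receptor (0.87, at 4.48 CPM in TAC), and Itpr1, an inositol trisphosphate receptor (0.22), rose, while Jph1, the junctophilin of skeletal muscle, fell (-0.53, adjusted p = 0.00940).

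Of 14 genes of entry through the surface membrane 2 rose and 2 fell. The calcium channel beta subunits moved in opposite directions, with Cacnb2, the most abundant of the 3 named, lower at 75.2 ± 9.04 CPM against 101 ± 10.3 in sham (-0.42, adjusted p = 0.0131). Cacnb1 rose from 4.74 to 9.63 CPM (1.02, adjusted p = 0.00589) and Cacnb3 from 2.58 to 4.90 CPM (0.93, adjusted p = 0.0191). Cacna1h, a T-type channel pore, was called lower (-0.98, adjusted p = 0.0428), at 6.00 ± 0.994 CPM in TAC against 11.8 ± 7.56 in sham. Its groups overlapped, and its spread among sham hearts was wide. Of 4 tested extrusion genes 2 rose, the exchanger Slc8a2 (0.89, at 1.27 CPM in TAC) and the surface pump Atp2b4 (0.31). Of 7 mitochondrial calcium genes Micu2, a gatekeeper of the uniporter, rose from 83.8 ± 4.08 to 116 ± 8.20 CPM (0.47, adjusted p = 0.00202) and Letm1 fell (-0.33, adjusted p = 0.0398). Of 10 kinase genes 2 rose and 2 fell. Prkar1a, a regulatory subunit of protein kinase A, rose from 442 ± 14.8 to 729 ± 189 CPM (0.72, adjusted p = 0.0101) and Camk2g rose (0.21), while Camk2a (-0.81) and Camk2b (-0.63) fell.

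Against TAC, 0 of these 62 genes were called with either inhibitor, where edgeR called 0.0141% and 0.00707% of all genes. Against sham, 8 were higher and 6 lower with the PDE5A inhibitor, and 1 was higher and 2 lower with the PDE9A inhibitor. These are 22.6% of the 62 genes beside 14.6% of all genes, and 4.84% beside 3.82%. The 3 called with the PDE9A inhibitor were Micu2 (0.32, adjusted p = 0.0301), Ppp1r3a (-0.46, adjusted p = 0.0483) and Calr, which encodes the store protein calreticulin (-0.35, adjusted p = 0.0273).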

How the data were processed

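Left ventricle RNA of 21 mice was sequenced from stranded total RNA libraries, per the labels' protocols. The authors deposited RSEM expected counts in a single table with a row for each of 24054 symbols. These are not scaled between libraries, and 19% of values have decimals. Per the submitters' processing notes, which give neither roles nor order, the tools were HISAT2 2.0.5, CASAVA 1.8.4, DESeq2 1.18.1 and RSEM 1.3.0, and the build was mm10. The gene annotation and the use of strand in counting are not stated there. In 27 rows the symbol was a date.

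After rounding to whole numbers, genes were filtered with filterByExpr by group (14135 left) and scaled by TMM, and edgeR 4.0.16 in R 4.3.3 fitted a quasi-likelihood model of 4 group means to the 21 libraries (robust glmQLFit, then glmQLFTest). The Benjamini-Hochberg adjustment covered the 14135 genes in each comparison. Standard errors and 95% intervals come from this fit. The model was also run on counts simulated from its own estimates of spread, with changes planted in TAC against sham only. Such a run checks the code and cannot show how well the model describes these libraries. Each library is a separate animal, so p-values measure the spread between animals.

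The Pln to Atp2a2 ratio was tested as log2 ratio of counts per library with two-sided exact permutation tests. These cannot give a p below 0.00794 with 5 libraries in each group, or below 0.00216 with 6 and 5. Relations with Myh7 used 100000 resamples without regard to group, or all orders for the 6 PDE9A inhibitor libraries. Lengths are the union of exons in GENCODE M21, and promoters are from RefSeq GRCm38.p6. Mrln stands in the table under an older symbol.

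Named were the 10 genes, up to 4 called genes of each of 6 pathway lists by lowest adjusted p in TAC against sham, the 5 genes nearest to Atp2a2 and to Pln, and Myh7, Nppa and Nppb. Markers are given as list counts and sums, apart from the atrial markers, which are named with their counts, and Myh6. Markers near 0 in the other lists are not named. Genes and lists were chosen with earlier results of these data known. Alternatives were RLE scaling, library size only, cardiomyocyte marker scaling, DESeq2 1.42.0, no filter, the ear tag series as a term, the replicate number as a block, only the 2 groups compared, and each library left out. No 2 libraries agreed within counting noise. Equal replicate numbers carry different ear tags.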

Additional observations from a re-analysis of the deposited data

Results flagged for a closer look

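Of 41 groups of 4 to 10 libraries tested for a value far from the others, 3 had one, and chance gives about 1 in 20. The Pln level of PDE5A inhibitor library 4, at 3520.3 CPM, was the lowest of 5, and its gap to the next was 0.838 of the group's range. The same library had the lowest Atp2a2 of its group, at 10571 CPM, so that its ratio of 0.333 was the lowest of that group by little. The Sln level of PDE9A inhibitor library 1, at 2.417 CPM, was the highest of 6, with a gap of 0.922 of the range, and it came with the high Myl7 and Myl4 counts described above. The Casq2 level of PDE9A inhibitor library 2, at 1715.7 CPM, was the highest of 6, with a gap of 0.626 of the range. Atp2a2 in that library, at 14116 CPM, was in the middle of its group.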

How the results depend on the processing

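Of 1620 values of single members under alternatives, 1574 kept their side of the threshold, 36 lost a call and 10 gained one. None changed sign with a call, but 57 of the 1574 changed sign with no call in either. Over all genes, the number called in PDE5A inhibitor against TAC was 0 with cardiomyocyte marker scaling or only the 2 groups compared and 9 with DESeq2. In PDE9A inhibitor against TAC it was 26 with DESeq2 and 0 without the filter, with the ear tag term or with only the 2 groups compared. Between the inhibitors it was 35 with DESeq2, 3 with the ear tag term and 0 with only the 2 groups compared. Against sham, the PDE5A inhibitor gave 441 genes and 1 member with the ear tag term and 3440 genes with only the 2 groups compared. The PDE9A inhibitor gave 40 genes with cardiomyocyte marker scaling, 1529 genes and 2 members with DESeq2, 329 genes without the filter, 108 with the ear tag term and 17 with only the 2 groups compared. An alternative chosen after seeing the data, leaving out PDE9A inhibitor libraries 1 and 4 together, gave 0 genes against TAC, 2 between the inhibitors and 18 against sham. Within ear tags beginning with 5 or 6 the log2 ratio of Pln to Atp2a2 differed by 0.365 in TAC against sham (exact p = 0.1, the smallest that 3 against 2 libraries can give) and by 0.247 in PDE9A inhibitor against sham (exact p = 0.143). The r of this ratio with Myh7 was 0.406 without the 2 farthest hearts and, in subsets chosen after seeing the data, 0.0299 above 1000 CPM of Myh7 and 0.679 in the PDE9A inhibitor hearts. The cause of these changes was not tested.

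Equal replicate numbers belong to different ear tags, and of 30 pairs with the same number 8 correlated above 0.1 (range -0.225 to 0.564). Pairs with different numbers were not compared, so these values cannot decide whether the numbers mark shared blocks. With the replicate block 1 gene was called in PDE5A inhibitor against TAC, 0 in PDE9A inhibitor against TAC, 0 between the inhibitors, 3896 genes and 6 members in TAC against sham, and 2241 genes and 2 members, Atp2a2 (-0.58) and Ryr2 (-0.44), in PDE9A inhibitor against sham. The blocked ratio differences were 0.327, -0.284 and 0.228 for TAC against sham, PDE5A inhibitor against TAC and PDE9A inhibitor against sham, each at exact p = 0.0625, the smallest that 5 pairs can give.

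With each library left out in turn, the genes called ranged from 1781 to 4440 in TAC against sham, 0 to 2 and 0 to 46 for the PDE5A and the PDE9A inhibitor against TAC, 1 to 8 between them, and 580 to 2531 and 21 to 1814 for the PDE5A and the PDE9A inhibitor against sham. Members called ranged from 2 to 6 in TAC against sham (2 without TAC library 3, 3 without TAC library 4), 1 to 5 for the PDE5A and 0 to 1 for the PDE9A inhibitor against sham. Ratio differences ranged from 0.313 to 0.337 in TAC against sham, -0.305 to -0.271 and -0.176 to -0.0989 for the inhibitors against TAC, -0.185 to -0.107 between them, and 0.0219 to 0.0565 and 0.151 to 0.228 against sham. Depth limits Sln alone among the members, whose counts were at most 5 in 20 libraries.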
